A study of Mus musculus with 9 samples.

Results

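Histone genes were examined in 9 single mouse oocytes at metaphase II, each profiled on its own Affymetrix Mouse Gene 1.0 ST array. The members were all genes with a row of the array table that carried 1 gene symbol of the histone naming pattern (H1f, H2ac, H2bc, H3c, H4c, H3f3, H2az, H2ax, H2aj, Macroh2a and their older names). The rule gave 38 of 19938 genes: 27 clustered genes of the replication-dependent type, 10 variant genes and Macroh2a3, which RefSeq lists as a transcribed pseudogene. A further 32 histone rows carried several symbols, because near-identical copies share them, and are described apart.

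The oocytes came from unmated ICR females aged 2 months that had received 10 IU of PMSG and, 46 h later, 10 IU of hCG. RNA was purified from 3 oocytes with the Qiagen RNeasy Mini kit and from 3 with the Arcturus PicoPure kit, and another 3 were lysed in NuGEN direct lysis buffer and carried on as crude lysate. Amplification with the NuGEN Ovation One-Direct chemistry and biotin labelling were common to all samples. Each condition drew on 3 mice, with 1 to 3 cells from each per the labels. The labels do not tie an oocyte to its mouse, and p-values therefore rest on the spread among oocytes, some of which may come from the same animal. The comparison asks how the preparation affects the transcripts read from 1 cell. No genotype or treatment differed between the groups, and the stage and strain limit the values to superovulated eggs of 1 outbred stock.

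Histones package DNA into nucleosomes. The clustered genes are transcribed when a cell replicates its DNA; their messages have no introns and end not in a poly(A) tail but in a stem-loop that SLBP, the stem-loop binding protein, holds through processing, storage and translation. Variant histone genes lie outside the clusters, are mostly polyadenylated and are used independently of replication. Oocytes also hold germ cell forms: H1f8, formerly H1foo, is the linker histone of the egg, and H2bc1 and H2ac1 encode TH2B and TH2A, which are made in germ cells.

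Promoter sequence is a feature that the naming rule did not use. RefSeq promoter windows (GRCm38.p6) were matched for 32 of the 38 members, 23 clustered and 9 variant; H2ax, H2bc21, H2bc4, H3c7, H4c14 and Macroh2a3 were not matched. The 250 bases before each start were searched on both strands for 4 motifs, none of which contains another: TATAAA (the TATA box core), CCAAT, ATTTGCAT (the octamer) and AAACACA (a motif described in linker histone promoters). TATAAA or its reverse TTTATA stood in 14 of 23 clustered windows (60.9%), in 0 of 9 variant windows and in 12.4% of all 32851 RefSeq windows. CCAAT or ATTGG stood in 19 clustered windows (82.6%) and 5 variant windows (55.6%), against 33.8% of all windows. The octamer or its reverse ATGCAAAT stood in 8 clustered windows (34.8%) and 0 variant windows, against 1.6% of all windows. Those 8 were 5 of 7 H2B and 3 of 4 H2A windows, and 0 of the 5 H1, 2 H3 and 5 H4 windows. AAACACA or TGTGTTT stood in 8 clustered windows (34.8%), 4 of them among the 5 H1 windows, and in 1 variant window (11.1%), that of H3f3a, against 6.25% of all windows. The divergent pairs H2bc1 with H2ac1 and H2bc8 with H2ac8 share 220 and 279 bases of their windows, so their matches are not independent.

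The promoters below are those of the genes the expression results turn on, written 5′ to 3′ with motif matches in capitals. H2bc18 (chr3:96269550-96269699, plus strand) is the member with the called difference, H2bc14 (chr13:21721894-21722043, plus strand) is another H2B gene with an octamer, H1f1 (chr13:23763518-23763667, plus strand) is a linker histone gene with a TATA box, and H1f8 (chr6:115944781-115944930, plus strand) is the egg linker histone gene, with CCAAT matches alone. The last sequence is the whole 280-base stretch between the starts of H2bc1 (minus strand) and H2ac1 (plus strand), chr13:23934157-23934436 read on the plus strand.
H2bc18: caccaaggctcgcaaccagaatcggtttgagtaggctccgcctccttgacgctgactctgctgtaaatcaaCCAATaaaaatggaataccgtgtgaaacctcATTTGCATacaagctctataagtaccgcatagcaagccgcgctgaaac
H2bc14: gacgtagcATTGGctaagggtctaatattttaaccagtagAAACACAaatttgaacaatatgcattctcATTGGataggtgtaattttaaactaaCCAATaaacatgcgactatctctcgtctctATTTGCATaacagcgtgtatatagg
H1f1: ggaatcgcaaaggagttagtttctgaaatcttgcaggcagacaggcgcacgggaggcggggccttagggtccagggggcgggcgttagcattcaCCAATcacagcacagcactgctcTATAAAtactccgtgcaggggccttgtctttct
H1f8: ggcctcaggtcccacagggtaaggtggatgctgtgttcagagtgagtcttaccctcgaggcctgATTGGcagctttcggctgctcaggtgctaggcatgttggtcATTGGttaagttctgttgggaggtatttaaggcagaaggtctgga
H2bc1-H2ac1: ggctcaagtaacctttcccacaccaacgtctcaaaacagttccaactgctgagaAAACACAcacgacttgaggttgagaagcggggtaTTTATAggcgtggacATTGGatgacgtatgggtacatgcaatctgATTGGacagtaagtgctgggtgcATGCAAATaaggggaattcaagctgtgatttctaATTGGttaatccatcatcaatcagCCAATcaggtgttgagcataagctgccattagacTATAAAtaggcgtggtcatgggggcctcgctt
These letters hold 1 octamer each in H2bc18, H2bc14 and the H2bc1 and H2ac1 stretch, 3 CCAAT matches in H2bc14 and 4 in the divergent stretch, which also has 2 TATA box matches. A match is a description of the letters and not a measured site.

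Histone messages were detected in part. A gene was called above background on an array when it lay over the 95th percentile of 1231 olfactory, vomeronasal and taste receptor genes on that array, a working limit of 7.19 to 7.48 on the deposited log2 scale. Of the 38 members, 19 (50.0%) were above background on all 9 arrays, against 43.1% of all genes. These were 12 of 27 clustered genes (H1f1, H1f5, H2ac1, H2bc1, H2bc4, H2bc9, H2bc14, H2bc18, H4c3, H4c4, H4c6 and H4c14) and 7 of 10 variant genes (H1f7, H1f8, H1f10, H2aj, H2ax, H2az1 and H2az2). Another 10 clustered genes and the pseudogene Macroh2a3 were above background on none (11 of 38 members, against 35.1% of all genes), among them all 3 single-symbol H3 genes (H3c4, H3c7 and H3c15) and H1f6, the testis linker histone. These counts rest on the rows with 1 symbol. The same 3 H3 genes are also listed on the 10 shared H3 rows, whose means ran from 8.92 to 9.30. H4c8 is listed on the 5 shared H4 rows (11.16 to 11.60), and H2ac4, H2ac8 and H2bc8 are on shared rows above background too. Which of the listed genes the shared rows read was not tested. The other 5 clustered genes passed on 1 to 8 arrays, and so did Macroh2a1 (8 arrays), H3f3a (6) and Macroh2a2 (3). In 9 members (23.7%, against 30.2% of all genes) 1 value recurred to every digit on 3 or more arrays, as for H4c8 with 6.47 on 6 of them, so an SD near 0 in such a gene is no measure of precision.

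**Figure D1:**
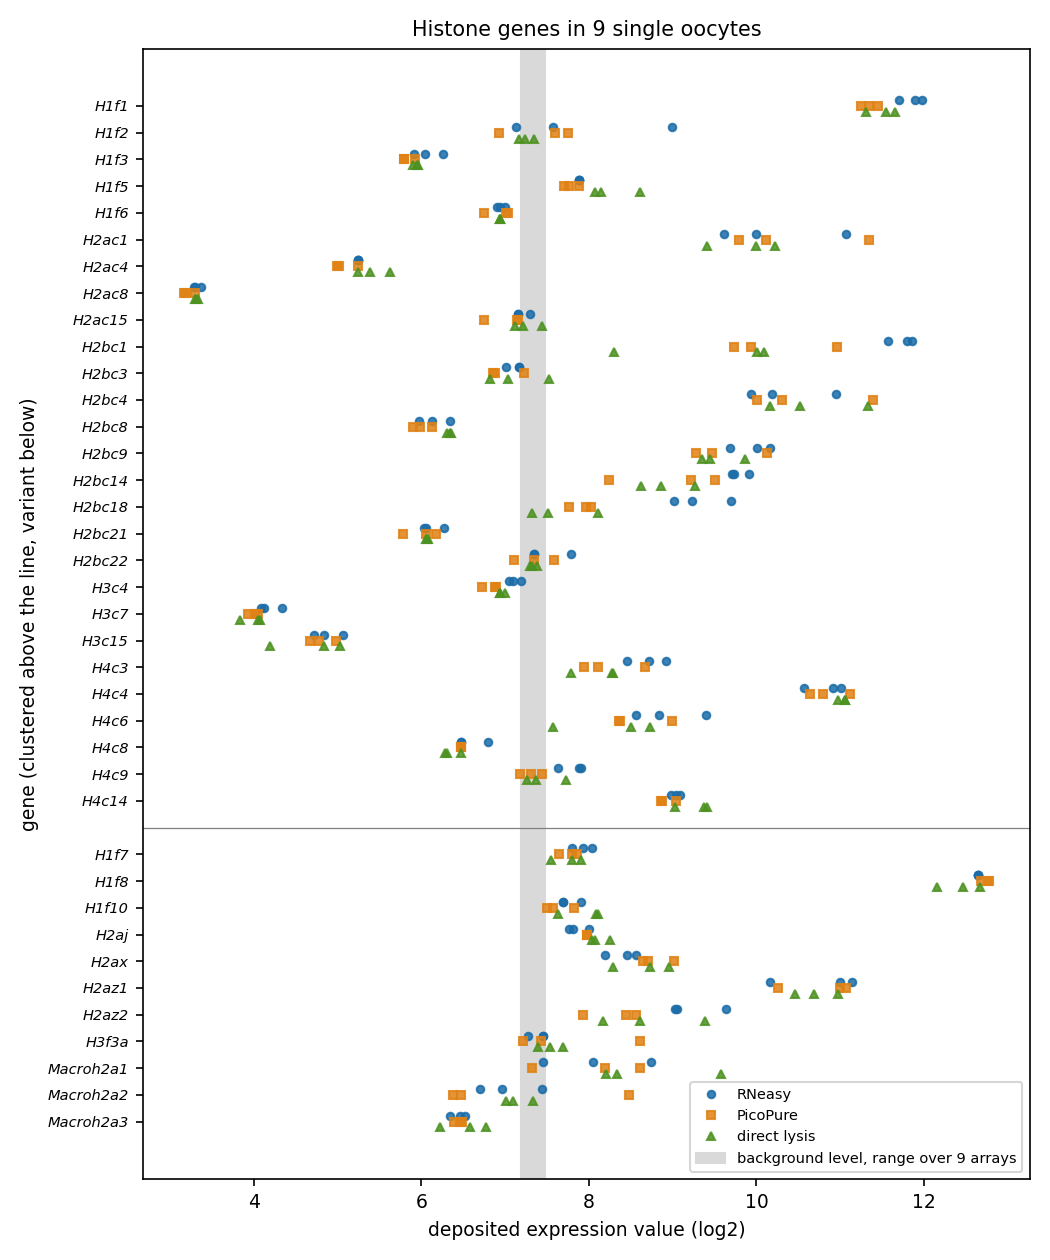
Deposited log2 expression value of each of the 38 histone genes (rows) in each oocyte, by preparation; the grey band spans the 9 arrays' background levels (7.19 to 7.48). H1f8, H1f1 and H4c4 lie far to the right of the band in all 9 oocytes, while the RNeasy oocytes (blue circles) stand to the right of the others for H2bc18, H2bc1 and H2bc14.

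The labelled cell type was checked on the same arrays. All 11 measured oocyte markers of 12 listed, such as Gdf9, Bmp15 and Zp3, were above background on all 9 arrays (43.1% of all genes). Of 23 measured cumulus and granulosa markers, 2 were (Foxl2 and Nr5a2), against 43.1% of all genes. Another 16 were above background on none, against 35.1% of all genes. Limma called 0 of the 23 in any comparison, where 0.0602% to 1.01% of all genes were called, depending on the comparison. The summed level of these 23 on the log2 scale was between 11.85 and 11.96 in the RNeasy oocytes, 11.83 and 12.10 in the PicoPure oocytes and 11.82 and 12.28 after direct lysis, and it rests largely on Nr5a2, which was lowest in RNeasy 3 (9.30). Without Nr5a2 the sum was 11.71 in RNeasy 3 and between 11.17 and 11.41 in the other 8 oocytes. RNeasy 3 thus stood apart: it was the highest of the 9 for 14 of the 23 markers and had 6 above background, against 2 to 4 in the others. Cumulus genes of the ovulatory response were among them, Tnfaip6 at 8.39 (others 6.34 to 7.03), Inhba at 8.48 (others 6.78 to 7.21) and Ptgs2 at 7.56 (others 6.24 to 6.94). The same oocyte was also the highest for H2bc18, H2bc14, H2bc22, H1f2 and H2az1. It was the highest as well for H1f3, H2bc21, H3c4, H3c15 and H4c8, which lay below background on all 9 arrays. The part of the cumulus markers in the histone values was not tested. The main differences from RNeasy are therefore also given without this oocyte. Of 9 measured blood and immune markers 2 were above background on all arrays (Cd3e and Pecam1), against 43.1% of all genes. The summed level of the 9 was higher with PicoPure (11.02 to 11.11) than with RNeasy (10.41 to 10.76) or direct lysis (10.41 to 10.72). Pecam1, an endothelial gene, stood at 10.40 ± 0.09 (SD, n = 3) with PicoPure against 9.38 ± 0.42 with RNeasy (adjusted p = 0.31), and the part of this marker list in the histone values was not tested. Of 18 genes of S phase and proliferation 17 were above background on all arrays, against 43.1% of all genes. Of these 18, 0 were called, where 0.0602% to 1.01% of all genes were.

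H2bc18, an H2B gene of the chromosome 3 cluster, was the 1 histone gene called as different between preparations. Its log2 value was 9.24, 9.01 and 9.69 in the RNeasy oocytes, 8.03, 7.96 and 7.76 in the PicoPure oocytes and 7.32, 7.51 and 8.11 after direct lysis. Every RNeasy oocyte lay above every other, and the PicoPure and direct lysis values overlapped. Against RNeasy (9.31 ± 0.35, SD, n = 3), direct lysis (7.65 ± 0.41) was lower by 3.17-fold, a difference of -1.67 ± 0.23 (SE) on the log2 scale with a limma adjusted p of 0.0408. In this comparison 1 of 38 histone genes was called, in the lower direction, where 0.271% of all genes were called lower and 0.436% in either direction. The test over all 3 preparations also called H2bc18 alone among the members (limma moderated F, adjusted p = 0.0450; 0.637% of all genes), with 11 members at an unadjusted p under 0.05 (12.8% of all genes). PicoPure (7.92 ± 0.14) differed from RNeasy by -1.40 ± 0.23 with adjusted p = 0.140, which missed the threshold of 0.05. The call against RNeasy held without direct lysis replicate 3 (adjusted p = 0.0254) and was lost without any other single oocyte, each left out in turn (RNeasy 1, 2 or 3, PicoPure 1, 2 or 3, or direct lysis 1 or 2; adjusted p between 0.0641 and 0.128). The difference itself stayed between -1.90 and -1.48. Without RNeasy 3, the oocyte that stands apart in cumulus markers, it was -1.48 (adjusted p = 0.102), and that of PicoPure from RNeasy was -1.21. The call over all 3 preparations was lost in 10 of 17 alternative settings: with further quantile normalization (adjusted p = 0.0647), with the replicate number as a block (0.112) and without any single oocyte (0.0689 to 0.134) other than direct lysis 3 (0.0297).

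H2bc1, which encodes the germ cell histone TH2B, had the widest differences between preparations among the members, none of them past the threshold. Its values were 11.57, 11.86 and 11.79 with RNeasy, 10.96, 9.93 and 9.73 with PicoPure and 8.30, 10.01 and 10.09 after direct lysis. The RNeasy oocytes stood close together (SD 0.15, n = 3) and above all 6 others, whereas the direct lysis oocytes spread widely (SD 1.01), with replicate 1 far below the rest. The difference of direct lysis from RNeasy was -2.28 ± 0.50 (95% interval -3.44 to -1.11, adjusted p = 0.124) and that of PicoPure from RNeasy was -1.53 ± 0.50 (adjusted p = 0.507). Without RNeasy 3 they were -2.25 and -1.50. H2ac1, which encodes TH2A and shares the stretch of promoter printed above, read 9.99, 11.06 and 9.62 with RNeasy, 11.34, 9.79 and 10.11 with PicoPure and 10.22, 9.41 and 9.99 after direct lysis. The 3 groups overlapped for H2ac1. Direct lysis differed from RNeasy there by -0.35 ± 0.49 (95% interval -1.49 to 0.79), an interval that overlaps that of H2bc1 (-3.44 to -1.11). The difference between both genes was not tested. The third germ cell member, H1f6, stayed below background on all 9 arrays.

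Other H2B genes did not share 1 pattern. H2bc14 read 9.71, 9.73 and 9.91 with RNeasy, 9.22, 8.24 and 9.50 with PicoPure and 8.63, 8.86 and 9.27 after direct lysis. All RNeasy oocytes were again the highest, with differences of -0.79 ± 0.31 (PicoPure, adjusted p = 0.577) and -0.87 ± 0.31 (direct lysis, adjusted p = 0.295), and without RNeasy 3 of -0.73 and -0.80. H2bc4 read 10.95, 9.94 and 10.19 with RNeasy, 10.30, 10.00 and 11.40 with PicoPure and 11.34, 10.16 and 10.52 after direct lysis. Its groups overlapped throughout, and the interval for direct lysis minus RNeasy ran from -0.73 to 1.35. H2bc9 read 10.16, 10.00 and 9.69, then 9.47, 9.28 and 10.13, then 9.35, 9.45 and 9.86 in the same order of groups, with 1 PicoPure and 1 direct lysis oocyte inside the RNeasy range. For H2bc9, H2bc14 and H2bc4 alike the lowest PicoPure value came from replicate 2 and the highest from replicate 3. The remaining H2B members lay near or below background: H2bc22 passed on 7 arrays, H2bc3 on 1, and H2bc8 and H2bc21 on 0.

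**Figure D2:**
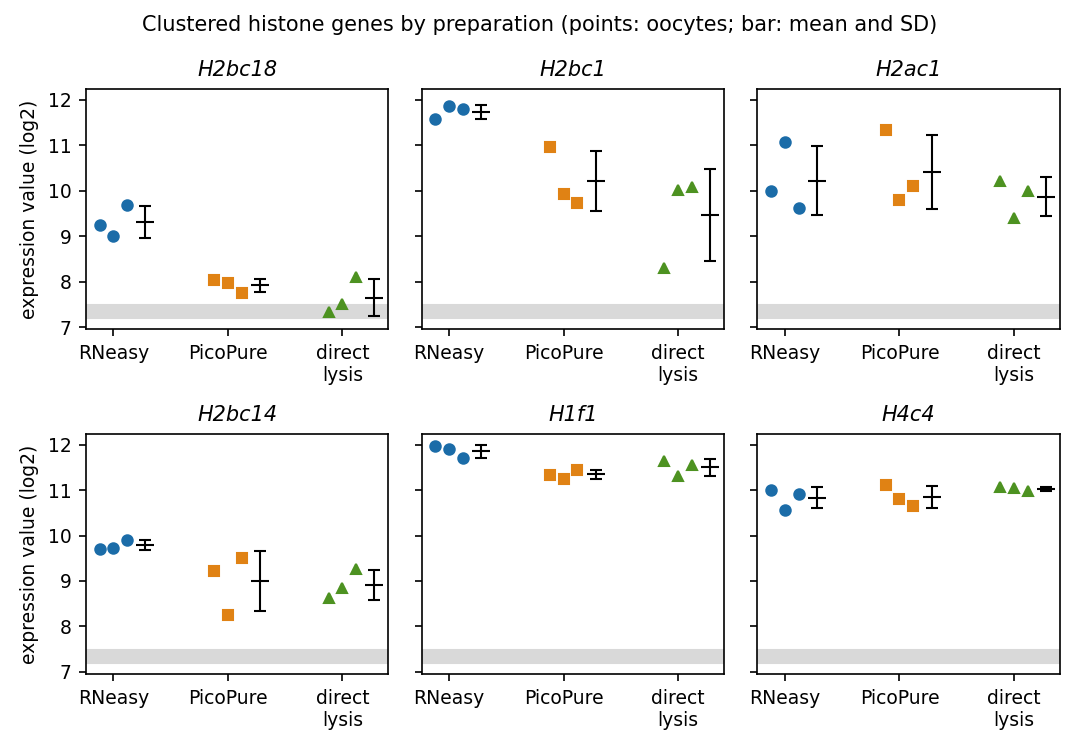
Log2 expression value of 6 clustered genes in each oocyte (points) with the mean and SD of 3 oocytes beside them; the grey band is the range of background levels. For H2bc18, H2bc1, H2bc14 and H1f1 all RNeasy points lie above all PicoPure and direct lysis points, and for H2ac1 and H4c4 the groups overlap.

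Among the clustered linker histones, H1f1 and H1f5 were above background on all 9 arrays. H1f1 read 11.98, 11.90 and 11.70 with RNeasy, 11.34, 11.24 and 11.45 with PicoPure and 11.65, 11.30 and 11.54 after direct lysis. The RNeasy oocytes again did not overlap with the others, at differences of -0.51 ± 0.12 (PicoPure, adjusted p = 0.314) and -0.36 ± 0.12 (direct lysis, adjusted p = 0.251), and without RNeasy 3 of -0.59 and -0.44. H1f5 went the other way, with 7.88 in all RNeasy oocytes, 7.88, 7.77 and 7.70 with PicoPure and 8.14, 8.61 and 8.07 after direct lysis. Crude lysate lay above all 6 purified samples for H1f5, by 0.45 ± 0.12 with adjusted p = 0.149. The same 7.88 recurred to every digit on 4 arrays, all RNeasy ones and PicoPure 1. The SE and p of H1f5 are therefore no full measure of its spread. H1f2 was above background on 5 arrays, with RNeasy 3 at 8.99 and the other 8 oocytes between 6.93 and 7.75. Without RNeasy 3 its differences from RNeasy were 0.08 (PicoPure) and -0.10 (direct lysis). H1f3 and H1f6 were below background on all 9.

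The H4 genes with rows of their own were mixed. H4c4 read 11.01, 10.57 and 10.91 with RNeasy, 11.11, 10.80 and 10.64 with PicoPure and 11.06, 11.05 and 10.98 after direct lysis, with a difference of direct lysis from RNeasy whose interval ran from -0.14 to 0.54. H4c3 read 8.71, 8.93 and 8.46, then 8.11, 7.94 and 8.67, then 8.27, 8.28 and 7.78 in the same order of groups; direct lysis lay below RNeasy without overlap, by -0.59 ± 0.23 (adjusted p = 0.326). H4c6 read 8.56, 9.40 and 8.83, then 8.36, 8.37 and 8.99, then 8.51, 8.73 and 7.57, with overlap between all groups. Both H4c3 and H4c6 were lowest of all in the oocyte labelled direct lysis 3. That oocyte was the highest for H4c14, which read 9.05, 8.98 and 9.09 with RNeasy, 8.87, 8.86 and 9.05 with PicoPure and 9.37, 9.02 and 9.41 after direct lysis (crude minus purified 0.28 ± 0.10, adjusted p = 0.253). H4c9 passed background on 8 arrays and H4c8 on 0.

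The clustered genes as a class are described by counts of direction, with no set test. For PicoPure minus RNeasy 24 of 27 differences were below 0, with a median of -0.16, against 58.5% of all genes and a median of -0.03. Of the 27, 7 had all PicoPure oocytes below all RNeasy oocytes, where 7.03% of all genes did. By an adjusted p under 0.05, 0 of 38 histone genes were called in this comparison (0.0602% of all genes), and by an unadjusted p under 0.05 limma gave 8 (7.98% of all genes), all lower (3.36% of all genes lower). Direct lysis minus RNeasy was below 0 in 19 of 27 clustered genes, where 51.1% of all genes were, with a median of -0.16 against -0.005 over all genes, and 7 of 27 lay below RNeasy without overlap (8.89% of all genes). In that comparison 8 of 38 members had an unadjusted p under 0.05 by limma (13.4% of all genes), 6 of them lower (7.21% of all genes lower). Without RNeasy 3, 21 of 27 clustered differences were below 0 for PicoPure (median -0.12) and 17 of 27 for direct lysis (median -0.09). H3c4 and H3c7, above background on no array, were in the non-overlap counts of both comparisons. Of the 12 clustered genes above background on all arrays, 4 lay below RNeasy without overlap for PicoPure and 5 for direct lysis. The share among all genes at that level was not computed. Both comparisons share the 3 RNeasy oocytes, so they are not separate evidence that those oocytes were high.

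Level bears on these counts. With genes split by their mean over all 9 arrays at the mean background of 7.29, the 15 clustered genes above it had 12 differences below 0 for PicoPure minus RNeasy, with a median of -0.36. Over all 10900 genes above that level 47.3% were below 0, with a median of 0.01. The 12 clustered genes under the level were all below 0, with a median of -0.13, where 71.9% of 9038 such genes were below 0. The receptor genes that set the background moved the same way, with a median of -0.11 and 87.1% below 0. For direct lysis minus RNeasy the 15 higher genes had a median of -0.36 (11 below 0; 49.2% of all higher genes) and the 12 lower genes -0.03 (8 below 0). The receptor genes had a median of -0.09 there with 74.7% below 0, and the clustered genes as a whole had 70.4% below 0. The part of the background shift in the lower genes was not tested.

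**Figure D3:**
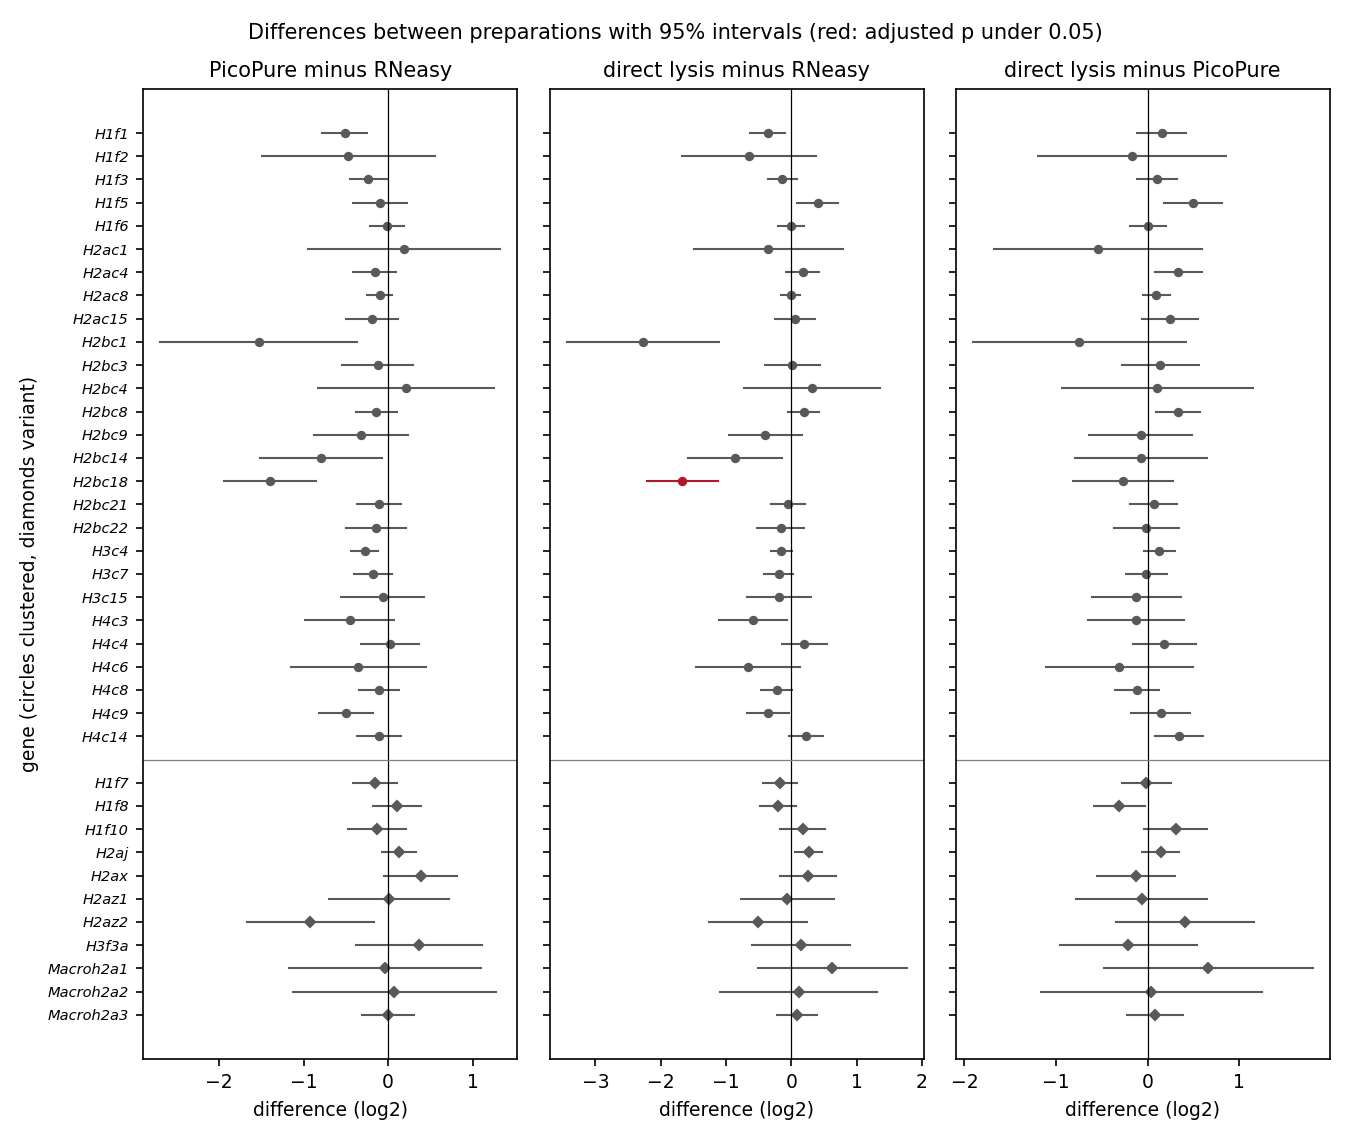
Difference between preparations in log2 units for each histone gene, with 95% intervals from the limma fit; circles are clustered genes, and the diamonds below the line are the variant genes and the pseudogene Macroh2a3. Most circles lie left of 0 in the first panel (24 of 27) and in the second (19 of 27), and H2bc18 in the second panel is the only interval drawn in red for an adjusted p under 0.05.

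The variant genes lay on both sides of 0. For PicoPure minus RNeasy 4 of 10 were below 0 with a median of 0.04, and for direct lysis minus RNeasy 4 of 10 with a median of 0.13. Leaving out single oocytes moved the first median between -0.07 and 0.11, so its sign is not settled, and the second between 0.05 (without direct lysis 2) and 0.15. The median of the clustered genes moved between -0.21 and -0.12 for PicoPure minus RNeasy and between -0.21 and -0.09 (without RNeasy 3) for direct lysis minus RNeasy. The median clustered value minus the median variant value of each array was -0.46 ± 0.33 (SD, n = 3) with RNeasy, -0.82 ± 0.46 with PicoPure and -0.84 ± 0.04 after direct lysis. The single oocytes ran from -0.72 to -0.09, from -1.34 to -0.50 and from -0.86 to -0.79, so the groups touched: RNeasy 1 and 2, at -0.72 and -0.58, fell inside the PicoPure range, as did all direct lysis oocytes. The sign depends on the members below background: over those above it on all 9 arrays the value was 1.39 with RNeasy, 1.02 with PicoPure and 0.90 after direct lysis, with the clustered genes the higher.

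H1f8, the egg linker histone, differed little between oocytes of the same kit. It stood at 12.64 in each RNeasy oocyte, at 12.69, 12.78 and 12.77 with PicoPure and at 12.67, 12.16 and 12.47 after direct lysis. Direct lysis was below PicoPure in all oocytes, by -0.31 ± 0.12 (adjusted p = 0.357), and overlapped RNeasy. H1f7 and H1f10, a testis and a widely expressed linker histone, were above background on all arrays within 7.54 to 8.03 and 7.50 to 8.11.

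Of the H2A variants, H2az1 and H2az2 encode the 2 forms of H2A.Z, found at promoters. H2az1 read 10.99, 10.16 and 11.14 with RNeasy, 10.99, 11.07 and 10.26 with PicoPure and 10.46, 10.97 and 10.68 after direct lysis, with full overlap, and its second row gave differences of -0.03 (PicoPure minus RNeasy) and -0.09 (direct lysis minus RNeasy). H2az2 read 9.63, 9.05 and 9.02 with RNeasy, 8.56, 8.44 and 7.93 with PicoPure and 8.17, 9.39 and 8.61 after direct lysis. All PicoPure oocytes lay below all RNeasy oocytes for H2az2, by -0.92 ± 0.33 (adjusted p = 0.538). It was the 1 of 10 variant genes to do so, where 7.03% of all genes did. H2ax, the variant phosphorylated at DNA breaks, read 8.56, 8.20 and 8.45, then 8.70, 8.64 and 9.01, then 8.72, 8.29 and 8.96. PicoPure lay above RNeasy without overlap for H2ax, by 0.38 ± 0.19 (adjusted p = 0.662), as in 1379 of all 19938 genes. H2aj stood at 7.85 ± 0.12 (SD, n = 3), 7.98 ± 0.00 and 8.12 ± 0.12. All its crude lysates lay above all purified samples, by 0.20 ± 0.08 (adjusted p = 0.294), as in 859 of all 19938 genes.

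The macroH2A genes, whose proteins carry a large extra domain, spread widely within groups. Macroh2a1 read 8.74, 8.05 and 7.45 with RNeasy, 7.33, 8.19 and 8.61 with PicoPure and 8.33, 9.57 and 8.20 after direct lysis. Macroh2a2 stood at 8.48 in 1 PicoPure oocyte and between 6.37 and 7.44 in the other 8. No preparation separated either gene, and the pseudogene Macroh2a3 stayed between 6.22 and 6.77.

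H3f3a, 1 of the genes for the replacement histone H3.3, gave 2 different pictures by row. The row with its symbol alone, which the naming rule selects, read 7.27, 7.45 and 7.45 with RNeasy, 8.61, 7.43 and 7.21 with PicoPure and 7.39, 7.69 and 7.54 after direct lysis, close to background apart from 1 oocyte. Another 4 rows carry H3f3a together with Gm12657, and their median read 12.02, 11.97 and 11.99 with RNeasy, 12.15, 12.16 and 12.23 with PicoPure and 12.06, 12.30 and 12.03 after direct lysis. The rows of H3f3a thus disagree, and which of both genes the shared rows read was not tested. The 2 rows shared by H3f3b and Gm6485 stood at 12.21 ± 0.11, 12.12 ± 0.07 and 12.04 ± 0.14 (SD, n = 3) in the same order of groups.

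Rows shared by many near-identical clustered copies cannot be given to 1 gene, and they show the clustered families as sums of unknown members. The 10 H3 rows, each listing 12 H3 genes, had a median of 9.78, 9.93 and 9.56 with RNeasy, 8.94, 8.54 and 9.53 with PicoPure and 9.27, 8.91 and 8.85 after direct lysis. By this median all RNeasy oocytes were above all others, PicoPure 3 being nearly level with the lowest of them. Some single rows overlapped: RNeasy 3 read 9.05, 9.32, 9.42 and 9.47 there, below PicoPure 3 at 9.12, 9.38, 9.54 and 9.56. Direct lysis 1 was above RNeasy 3 in some of these rows too, at 9.20 and 9.52. The row differences of PicoPure from RNeasy ran from -0.86 to -0.53. The 7 H2B rows read 9.94, 10.05 and 10.33, then 9.72, 9.13 and 10.43, then 9.28, 9.38 and 9.70 in the same order of groups. PicoPure spanned the range of the other groups for H2B, with its replicate 2 lowest and its replicate 3 highest, as in H2bc9 and H2bc14. Both genes are among those that these rows list, so the likeness is not a separate observation. The 2 H2A rows, which also list H2ax and H3c4 among their symbols, stood at 9.76 ± 0.17 (SD, n = 3), 9.36 ± 0.10 and 9.42 ± 0.18. The median of the 5 H4 rows stood between 11.21 and 11.49 in 8 oocytes and at 10.27 in direct lysis 3, the oocyte in which H4c3 and H4c6 were lowest too. These rows list H4c3 and H4c6 among their genes, and also H4c4, which read 10.98 in direct lysis 3. In a fit over all rows of the table, limma called 0 of the 32 shared rows in any comparison, the smallest adjusted p being 0.185, where 0.700% of all tests over all rows were called. Of their 160 tests (4 contrasts and the test over 3 preparations for each row), 36 (22.5%) had an unadjusted p under 0.05, against 13.0% over all rows. The 10 H3 rows, which read the same 12 genes, gave 24 of these 36. Within H2B and within H4, 1 pair of rows held identical values, so the rows of a family are not independent readings.

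**Figure D4:**
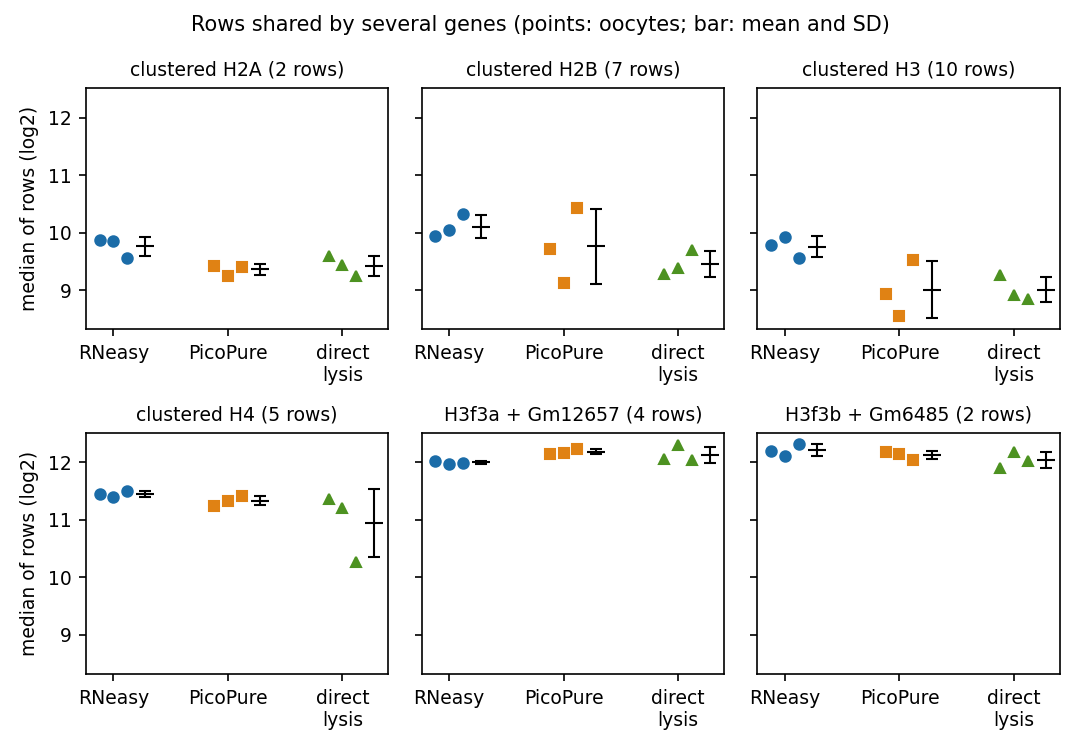
Median log2 value over the rows that several histone genes share, by family and oocyte (points), with the mean and SD of 3 oocytes; panel titles give the number of rows. In the H3 panel the RNeasy medians lie above the other groups (9.56 to 9.93 against 8.54 to 9.53 and 8.85 to 9.27), although some single rows overlap. The H4 panel shows direct lysis 3 at 10.27 apart from the other 8 oocytes.

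Crude lysate against purified RNA, the contrast of direct lysis with the mean of both kits, called 0 of 38 histone genes (1.01% of all genes). By an unadjusted p under 0.05 limma gave 8 (14.2% of all genes). Of these, 5 were higher in crude lysate (H1f5, H2ac4, H2bc8, H4c14 and H2aj; 7.18% of all genes) and 3 lower (H2bc18, H2bc1 and H1f8; 7.01% of all genes). The difference was below 0 in 17 of 27 clustered genes, where 49.4% of all genes were, and in 14 of 27 without RNeasy 3. The smallest adjusted p was that of H2bc18 (difference -0.97 ± 0.20, adjusted p = 0.0852), and without direct lysis replicate 3 it passed (-1.20, adjusted p = 0.0469). Because the RNeasy and PicoPure oocytes lie apart for H2bc18 and H2bc1, this contrast averages 2 unlike groups for them. H2ac4 and H2bc8 were below background on all 9 arrays, and their sign turned to -0.05 when values below background were raised to it. A repeated value also stood on 5 arrays for H2ac4 (5.24) and on 4 for H1f5 (7.88). Direct lysis against PicoPure also called 0 of 38 (0.597% of all genes), with 5 at an unadjusted p under 0.05 (12.3% of all genes): H1f5, H2bc8, H2ac4 and H4c14 higher and H1f8 lower. The comparisons of direct lysis share its 3 oocytes.

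Clustered histone messages need their own processing machinery, and 1 of its genes fell after direct lysis. Casp8ap2 encodes FLASH, which recruits the cleavage factors to the histone pre-mRNA. It read 11.66, 11.75 and 11.37 with RNeasy, 11.82, 11.88 and 11.80 with PicoPure and 10.24, 9.67 and 9.49 after direct lysis. All direct lysis oocytes lay more than 1 log2 unit below all purified samples, and the difference of crude lysate from purified RNA was -1.91 ± 0.17 (limma adjusted p = 0.00528). It was called as well against RNeasy (-1.79 ± 0.19, adjusted p = 0.0194) and against PicoPure (-2.03 ± 0.19, adjusted p = 0.0104). Without RNeasy 1, RNeasy 2 or PicoPure 2 the call against RNeasy was lost (adjusted p of 0.0840, 0.0776 and 0.0592), and without PicoPure 2 also that against PicoPure (0.0537). Against the mean of both kits it held under all 17 alternative settings, at an adjusted p of at most 0.0314.

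The other measured processing genes did not pass. Of 26 genes listed for histone mRNA processing and decay, 25 were measured and 18 were above background on all 9 arrays (43.1% of all genes). Casp8ap2 was the 1 gene called in each comparison with direct lysis, with 0 called for PicoPure against RNeasy. Of all genes, 1.01% were called for crude against purified, 0.436% and 0.597% for direct lysis against RNeasy and against PicoPure, and 0.0602% for PicoPure against RNeasy. Slbp, the stem-loop binding protein, read 12.23, 12.24 and 12.29 with RNeasy, 12.25, 12.25 and 12.22 with PicoPure and 11.96, 12.12 and 12.01 after direct lysis. All direct lysis oocytes were below all purified samples for Slbp, by -0.22 with adjusted p = 0.139. Mif4gd, of the same list, went the other way, at 8.17 to 8.72 after direct lysis and 7.45 to 8.03 in purified samples. Its difference of crude lysate from purified RNA was 0.72 ± 0.18 (limma adjusted p = 0.124). Eri1, the exonuclease that trims and degrades histone mRNA ends, stood at 11.18 ± 0.17, 11.21 ± 0.19 and 11.15 ± 0.12. Lsm10 and Lsm11, subunits of the U7 particle that pairs with the histone pre-mRNA, were above background on all arrays, as was Zfp473, which steadies that particle, at 8.46 ± 0.30, 8.23 ± 0.52 and 8.29 ± 0.14. Npat, the activator of histone gene transcription, was above background on 8 arrays and varied most within RNeasy (7.71 ± 1.04). At an unadjusted p under 0.05 limma gave 6 of the 25 for crude against purified (14.2% of all genes). It gave 7 for direct lysis against RNeasy (13.4%), 3 for direct lysis against PicoPure (12.3%) and 2 for PicoPure against RNeasy (7.98%). The list's median difference for crude minus purified was -0.04, against 0.002 over all genes.

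**Figure D5:**
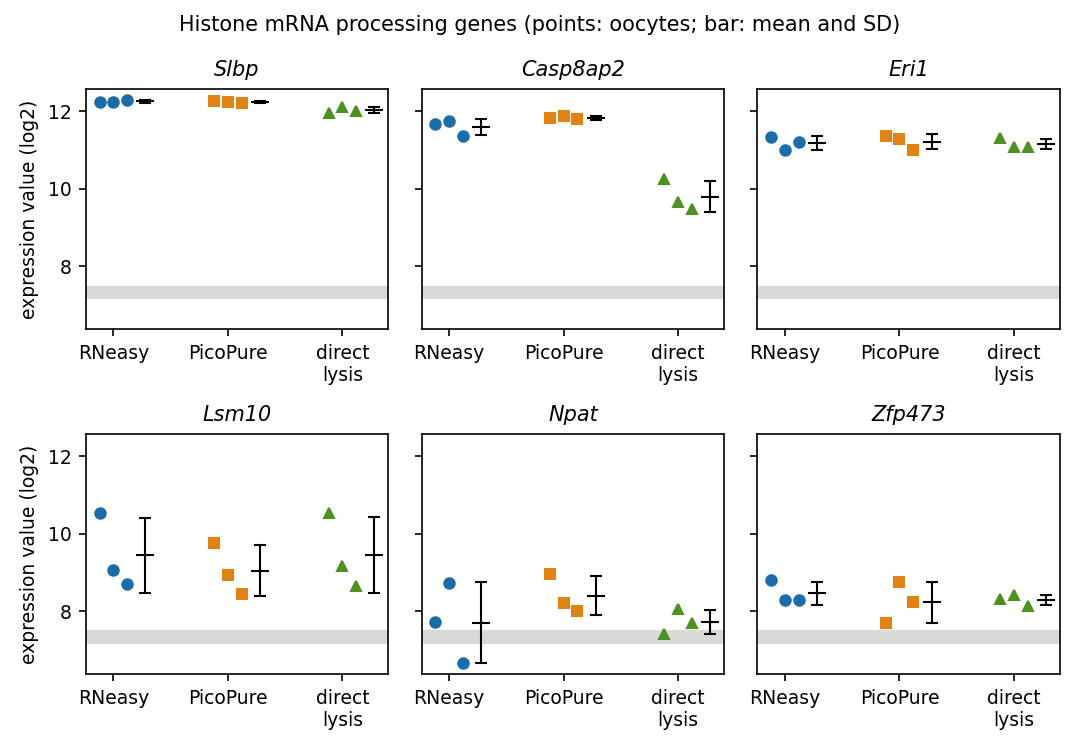
Log2 expression value of 6 genes for histone mRNA processing or transcription in each oocyte (points), with the mean and SD of 3 oocytes and the background range as a grey band. Casp8ap2 is lower in all 3 direct lysis oocytes (9.49 to 10.24) than in all 6 purified samples (11.37 to 11.88), Slbp is lowest there too (11.96 to 12.12), and the groups overlap in the other 4 panels.

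Histone chaperones, which carry histones from synthesis to chromatin, were detected broadly. Of 23 listed, 21 were measured, 20 were above background on all 9 arrays (43.1% of all genes) and 0 were called in any comparison. Of all genes, 0.0602% to 1.01% were called, depending on the comparison. At an unadjusted p under 0.05 limma gave 9 for crude against purified (14.2% of all genes) and 7 for direct lysis against PicoPure (12.3%). It gave 4 for direct lysis against RNeasy (13.4%) and 3 for PicoPure against RNeasy (7.98%). The list's median difference for crude minus purified was -0.11, against 0.002 over all genes. Npm2, the egg nucleoplasmin that stores histones, stood at 12.64 ± 0.01 (SD, n = 3), 12.64 ± 0.02 and 12.68 ± 0.13 in the order RNeasy, PicoPure and direct lysis. Nasp, which binds H1 and H3, stood at 12.24 ± 0.07, 12.21 ± 0.00 and 12.09 ± 0.12, and Hira, which deposits H3.3, at 8.02 ± 0.10, 7.97 ± 0.28 and 7.92 ± 0.05. Chaf1b, a subunit of the replication-coupled assembly factor, was the member not above background on all arrays, passing on 5.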

How the data were processed

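The authors deposited a table of 35556 rows with a value for each of 9 arrays. The submitters' processing notes name GCOS, Affymetrix Expression Console and GCRMA and give neither version nor order. The scale of the deposited values was read as log2 from their range (2.41 to 13.90), and the array medians lay between 7.12 and 7.24. The authors' background correction and normalization were kept as deposited, and what they did to low values cannot be told from these files. For the array annotation, the genome build was not given in the sources used here.

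Rows with 1 symbol in the platform's probe table were named (21789 of 35556), 21698 of them matched RefSeq by Entrez identifier, and the row with the highest mean stood for a gene. No filter on level was applied. Differences were fitted with limma 3.58.1 in R 4.3.3 (lmFit, eBayes) over all 9 arrays in 3 groups, with 6 residual degrees of freedom, two-sided, with Benjamini-Hochberg adjustment over 19938 genes and a threshold of 0.05. The number of arrays limits the precision. On simulated data with 200 of 19938 genes changed, limma recovered 81% at 1 log2 unit and 99% at 2 for crude lysate against purified RNA, with 9 and 7 false calls, and 74.5% and 94% for PicoPure against RNeasy, with 5 and 4. The changed genes were drawn from all genes, whose median SD within groups was 0.15. For clustered genes above background on all 9 arrays it was 0.33, so these rates do not carry over to them.

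The members, the lists and the rule for named genes were chosen with earlier results of these data known. The rule took all variant genes, the 10 clustered genes with the highest mean, the 3 germ cell genes, each member called and the 3 smallest p-values in each of 4 contrasts, genes whose other rows disagree, and from the 2 histone lists called genes and a set panel. Members outside it, such as H1f2, H1f3 and H4c9, and the non-members Pecam1 and Mif4gd were named after their values were seen. Alternatives were other scalings, a level filter, values raised to background, other row rules, limma-trend, a replicate block and leaving out each oocyte.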

Additional observations from a re-analysis of the deposited data

Results flagged for a closer look

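Of 38 histone genes, each tested for a lone high or low value among the 6 purified arrays, 3 had one, where chance alone gives about 1 in 20 for values that all vary. H3f3a was highest in PicoPure 1, at 8.61 against 7.45 in the next array. H2ac15 was lowest in PicoPure 1, at 6.75 against 7.14 in the next. H4c8 was highest in RNeasy 3, at 6.80, with 6.47 on all the other 5 purified arrays; any lone departure from 1 repeated value passes this test, so the chance rate does not apply to it. H2ac15 and H4c8 lay below the background level in those oocytes. Macroh2a2 was also highest in PicoPure 1, at 8.48, within the limits of the test.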

How the results depend on the processing

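With 3 oocytes a group, small differences are beyond these arrays. The single-symbol rows of most H3 and H2A clustered genes lay below background, and shared rows blur single copies. Against RNeasy, direct lysis gave 0 histone calls in place of 1 with the replicate block, and 0 to 1 when single oocytes were left out. The test over the 3 preparations gave 0 with further quantile normalization, 0 with the replicate block and 0 to 1 with oocytes left out, and crude against purified gave 0 to 1. The cause was not tested. The replicate numbers did not pair the samples (correlations of same-numbered oocytes from -0.09 to 0.13). With this replicate block the calls over all genes went from 201 to 25 for crude against purified, from 12 to 0 for PicoPure against RNeasy, from 87 to 15 for direct lysis against RNeasy and from 119 to 17 against PicoPure. Without RNeasy 1 they fell to 24, 0, 3 and 33 in the same order, and leaving out single oocytes gave 24 to 232, 0 to 15, 3 to 95 and 14 to 123, and 4 to 96 for the test over 3 preparations. With limma-trend the 12 calls for PicoPure against RNeasy became 0.

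The median of clustered minus variant genes moved to -0.83 (RNeasy) and -1.18 (direct lysis) as a mean over members, and in direct lysis to -0.88 without the germ cell genes. With Macroh2a3 as a variant it was -0.76 and with H3f3a from its shared rows -1.17 in direct lysis, both chosen after seeing the data. Among members above background on all 9 arrays it was 1.39, 1.02 and 0.90 in the order RNeasy, PicoPure and direct lysis. With the 99th percentile as background, 10 members passed on all arrays in place of 19. Of 2532 recomputed differences 133 changed sign, 2 of them from an unadjusted p under 0.05: H2ac4 and H2bc8 in crude against purified, each at -0.050 with values raised to background.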
